A study of Mus musculus with 2 samples.

Results

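The genes described here are 10 transcriptional regulators of 1 interaction network: the E protein genes Tcf3, Tcf4 and Tcf12, the Id genes Id1, Id2, Id3 and Id4, and the partner genes Lyl1, Tal1 and Lmo2. They were chosen by name, found by matching the deposited gene IDs to GENCODE mouse symbols, and make up 10 of the 43346 genes measured. The tissue was thymus of adult C57BL/6J mice, an inbred laboratory strain, aged 8 weeks. Males and females were pooled, and the labels record littermates and no treatment or altered genotype. RNA labelled as polyadenylated, over 200 nucleotides long and depleted of ribosomal RNA, was made into 2 stranded libraries read as pairs of 76 bases. These libraries, biological replicates 1 and 2, form 1 group, so levels are described and the libraries are set beside each other, with no test of a condition. Each was made from its own biosample, but both carry 1 donor entry, so their spread may be technical in part.

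E proteins are transcription factors with a basic helix-loop-helix (bHLH) domain that bind E-box DNA as dimers, with themselves or with other bHLH proteins. Id proteins keep the helix-loop-helix but lack the basic region that touches DNA, so an E protein held by an Id protein cannot bind. In the thymus, the products of Tcf3 and Tcf12 drive T cell commitment and antigen receptor gene rearrangement and hold cells at developmental checkpoints, and receptor signals induce Id3, which releases that hold. Lyl1 and Tal1 are bHLH factors of blood progenitors that pair with E proteins, and Lmo2 is a LIM-domain bridge that joins such pairs to Ldb1 and GATA factors. Lyl1, Tal1 and Lmo2 are known as oncogenes of T cell leukaemia when they stay active in thymocytes.

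Tcf3 makes the proteins E12 and E47 by using 1 of 2 alternative exons for the bHLH domain. These exons are shown because the shares of RNA with each exon could be read from the transcript tables. In the GENCODE M21 models (GRCm38), the E47 exon lies on the minus strand at chr10:80410398-80410624 in 6 transcripts. The E12 exon lies on the minus strand at chr10:80412827-80413062 in 4 transcripts. Capitals mark the bases that differ between the exons, or have no counterpart, when they are aligned without gaps from their 3′ ends.
Tcf3 E47 exon: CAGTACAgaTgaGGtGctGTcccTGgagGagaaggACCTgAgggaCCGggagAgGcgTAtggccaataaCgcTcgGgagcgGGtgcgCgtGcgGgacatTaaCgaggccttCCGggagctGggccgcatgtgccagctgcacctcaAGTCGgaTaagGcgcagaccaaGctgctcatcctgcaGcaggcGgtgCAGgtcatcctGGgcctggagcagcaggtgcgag
Tcf3 E12 exon: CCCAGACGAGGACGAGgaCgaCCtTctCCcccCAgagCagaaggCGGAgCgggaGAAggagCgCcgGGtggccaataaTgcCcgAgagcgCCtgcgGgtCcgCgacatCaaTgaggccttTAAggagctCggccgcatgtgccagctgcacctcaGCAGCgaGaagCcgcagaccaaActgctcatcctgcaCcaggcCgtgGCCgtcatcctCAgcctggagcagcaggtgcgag
The exons are 227 and 236 bases long, and 170 of the 227 aligned bases were identical (74.9%). Of the aligned bases, 30 of the first 75, 16 of the next 75 and 11 of the last 77 differed. A 7th E47 transcript, Tcf3-204, uses a later acceptor that shortens its exon to 224 bases.

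Tcf12 has a cassette exon of 72 bases at chr9:71868999-71869070 on the minus strand (GRCm38), shown because transcripts with and without it were quantified apart.
Tcf12 cassette exon: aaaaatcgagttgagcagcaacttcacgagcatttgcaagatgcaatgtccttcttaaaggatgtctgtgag
Its length is a multiple of 3 bases, and it is present in the coding sequence of Tcf12-202 and absent from that of Tcf12-201.

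Depth was 49.3 M fragments for replicate 1 and 63.1 M for replicate 2, and over 17989 genes the libraries differed by more than sampling noise (median chi-square 6.32, against 0.455 for noise). Levels are in TPM (a length-scaled share of the RNA that sums to the same total in each library), and every ± is an SD over the 2 libraries (n = 2), which rests on 1 difference. The deposited files give an interval for each TPM, of a level that they do not state. The thymocyte markers set to check the tissue were high: Lck stood at 1327 and 1454 TPM, and all 6 exceeded 99 TPM in both libraries. In bulk RNA of a whole organ, fewer cells of a type and less RNA per cell cannot be told apart.

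Of the 10 genes, 9 were detected at a mean of 1 TPM or more, where 33.1% of all genes and 60.3% of protein-coding genes were, and 6 reached 10 TPM, against 18.9% of all genes and 36.2% of protein-coding genes. By deposited TPM, Tcf12, Tcf3 and Id3 formed a high tier, Id2, Id1 and Tcf4 a middle tier, and Lmo2, Lyl1 and Id4 a low tier. Tal1 was under 1 TPM in both libraries. Neighbours within the top tier did not separate: the ranges of Tcf12 and Tcf3 over the libraries overlapped, as did those of Tcf3 and Id3, and both pairs changed order between libraries. By deposited TPM, every other pair of neighbours kept its order in both libraries. Lmo2 was below Lyl1 on each of 3 other length scalings given below, and Id1 was below Tcf4 with no length scaling (means of 27.2 and 37.7 CPM). The tiers of Tcf12 and Tcf4 also depended on the scaling. With the longest complete coding model, Tcf12 averaged 72.5 TPM, beside Id2 at 72.4 TPM, and Tcf4 6.98 TPM, beside Lyl1 at 5.97 TPM. With complete coding transcripts only, Tcf12 averaged 32.5 TPM, below Id1 at 49.1 TPM. The gaps in deposited TPM were 3.75-fold between Id3 and Id2, 1.48-fold between Id2 and Id1 and 1.12-fold between Id1 and Tcf4. They were 6.16-fold between Tcf4 and Lmo2, 1.19-fold between Lmo2 and Lyl1, 1.48-fold between Lyl1 and Id4, and 5.42-fold between Id4 and Tal1.

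**Figure D1:**
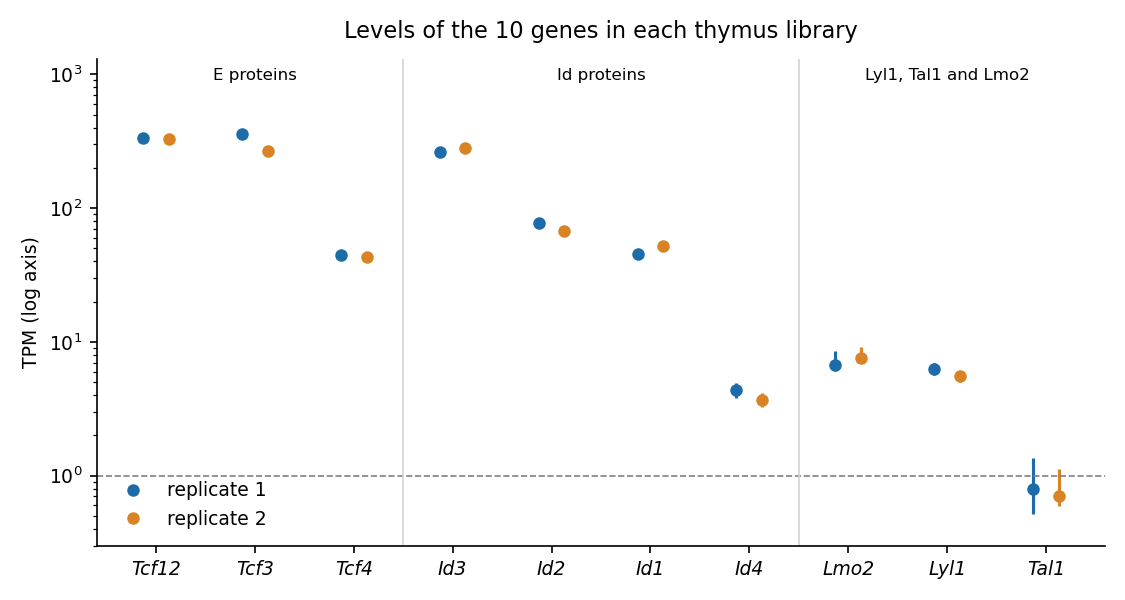
Levels of the 10 genes in TPM (log axis) in replicate 1 (blue) and replicate 2 (orange), grouped by role, with the deposited intervals as vertical lines and a dashed line at 1 TPM. Tcf12, Tcf3 and Id3 lie between 262 and 356 TPM in both libraries, and Tal1 at 0.79 and 0.70 TPM lies below the line, with intervals that cross it.

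Tcf12, which codes for the E protein HEB (chr9:71842688-72111871, minus strand, GRCm38), stood at 335 TPM in replicate 1 and 327 TPM in replicate 2, or 331 ± 5.39 TPM, from 15680 and 21137 fragments. The libraries nearly coincided, and their intervals, 323 to 340.5 TPM in replicate 1 and 318 to 333 TPM in replicate 2, overlapped. Tcf12 ranked 401st of all genes and lay above 97.2% of the detected genes. The annotation places 11 other genes over the same span, at up to 3.06 TPM in replicate 1 and 4.92 TPM in replicate 2.

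Tcf3 (chr10:80409514-80433647, minus strand) stood at 356 TPM in replicate 1 and 269 TPM in replicate 2, or 312 ± 61.7 TPM, from 29668 and 29693 fragments. The deposited intervals, 348 to 358 TPM in replicate 1 and 263 to 271 TPM in replicate 2, did not overlap. Tcf3 was 1.32-fold higher in replicate 1 (log2 ratio 0.41), the widest gap among the 10 genes, and 23.2% of detected genes differed by more. It ranked 427th of all genes.

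Tcf4, which codes for E2-2, the E protein on which plasmacytoid dendritic cells depend (chr18:69343356-69689079, plus strand), stood at 44.6 TPM in replicate 1 and 43.0 TPM in replicate 2, or 43.8 ± 1.14 TPM, from 1814 and 2359 fragments. It was the lowest E protein gene in both libraries and made up 6.06% and 6.73% of the summed E protein level. The 6 plasmacytoid dendritic cell markers summed to 2024 and 1855 TPM, but Ly6d and Ccr9, which led them, are also made by thymocytes. Siglech, the most specific of the 6, stood at 17.1 and 13.7 TPM. The 6 B cell markers summed to 87.2 and 71.5 TPM, and the 5 fibroblast markers to 83.7 and 109 TPM. What share of Tcf4 came from any of these cell types was not tested.

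Most Tcf3 RNA with either bHLH exon carried the E47 exon, and no protein was measured. Transcripts with the E47 exon summed to 238 TPM in replicate 1 and 171 TPM in replicate 2, and those with the E12 exon to 74.0 and 65.0 TPM. E47 thus took 76.3% and 72.5% of the sum of both, or 74.4 ± 2.65%. Counted in fragments, without length scaling, its share was 77.0% and 74.8%. The E47 share was higher in replicate 1 on both scales, and E47 exceeded E12 by 3.21-fold in replicate 1 and 2.64-fold in replicate 2. The later acceptor of the E47 exon was used in 5.08% and 3.27% of E47 TPM. Another transcript, Tcf3-212, is classed as a processed transcript at 27.5 and 19.4 TPM, and its exon runs over the E12 exon. With it counted as E12, the E47 share averaged 68.6%.

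Single Tcf3 transcripts were less stable than the exon share. Tcf3-202, an E47 form, led in both libraries at 112 and 97.8 TPM. Tcf3-209, also E47, stood at 49.5 TPM in replicate 1 (deposited interval 30.7 to 64.9) and 3.05 TPM in replicate 2 (1.53 to 19.4). Among E12 forms, Tcf3-206 stood at 32.8 and 7.76 TPM, and Tcf3-203 at 10.1 and 28.6 TPM, each with intervals that did not overlap. Grouped by start position, the 8 transcripts of the most upstream start held 301 and 196 TPM. The 3 transcripts that start further downstream, between positions 80430985 and 80431082, held 10.7 and 40.05 TPM, or 3.0% and 14.9% of the gene. The upstream start led in both libraries, and the downstream one took a larger share in replicate 2.

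**Figure D2:**
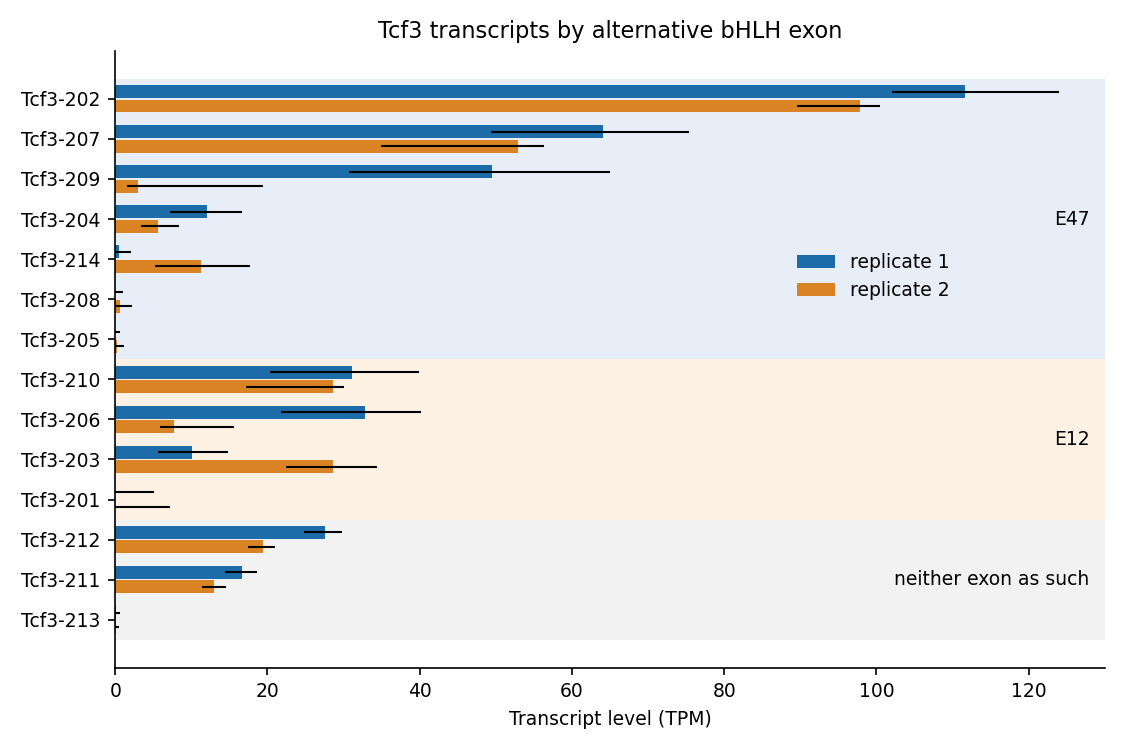
Level of each Tcf3 transcript (TPM, horizontal axis) in replicate 1 (blue) and replicate 2 (orange), with deposited intervals as black lines, grouped by whether the transcript holds the E47 exon, the E12 exon or neither of them as such. Tcf3-202 is the longest bar in both libraries (112 and 97.8 TPM), and Tcf3-209 differs most between them (49.5 and 3.05 TPM).

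The Tcf12 level rested on short transcript models. The 2 models with the highest TPM, Tcf12-210 and Tcf12-213, are 838 and 697 bases long. GENCODE M21 marks the first as incomplete at both ends and the second as incomplete at its start and a target of nonsense-mediated decay. Together they took 69.6% of Tcf12 TPM in replicate 1 and 68.4% in replicate 2, but 29.2% and 29.0% of its fragments. Tcf12-201, a complete coding transcript of 4621 bases, held 38.3% and 19.5% of fragments and 38.9 and 19.3 TPM. Tcf12-220, classed as a target of decay, had 10.4 and 26.4 TPM and was the largest by fragments in replicate 2 (24.0%). The 5 complete coding transcripts of the gene summed to 41.9 and 23.0 TPM.

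Transcripts of Tcf12 also divided by start and by exon. The 11 transcripts of the upstream start held 94.2 and 96.3 TPM and 66.6% and 65.9% of fragments. The 4 that start inside the gene, between positions 71895985 and 71896396, held 108 and 98.1 TPM but only 14.8% and 14.9% of fragments. Nearly all of that TPM was Tcf12-213, whose true start the model does not hold, at 103 and 93.1 TPM. Among the 10 transcripts across it, the 72-base cassette exon shown above was mostly skipped. The 5 transcripts that hold it summed to 13.4 and 10.7 TPM, and the 5 that pass over it to 80.4 and 86.7 TPM. Tcf12-210 and Tcf12-213, with 69.6% and 68.4% of Tcf12 TPM together, are not among the 10. The incomplete Tcf12-216 held 10.3 and 5.65 TPM of the first sum, and the decay target Tcf12-220 10.4 and 26.4 TPM of the second. Inclusion was 14.3% and 11.0%, or 12.7 ± 2.34%, and by fragments 12.8% and 12.1%.

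Tcf4 was like Tcf12 in this respect. Tcf4-213, a model of 600 bases marked as incomplete, took 53.7% and 57.4% of Tcf4 TPM but 17.8% and 19.5% of its fragments. Tcf4-204, a complete form that starts within the gene, led by fragments with 48.6% and 46.1%, at 15.7 and 14.0 TPM. Of the 3 groups of transcripts with the most upstream starts, Tcf4-205 was highest by TPM at 2.16 and 1.20 TPM, with 8.96% and 5.29% of fragments. The group of Tcf4-202 was highest by fragments with 13.5% and 15.7%, at 1.01 and 1.10 TPM. Tcf3 differed, with 87.4% and 83.8% of TPM in complete coding transcripts.

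**Figure D3:**
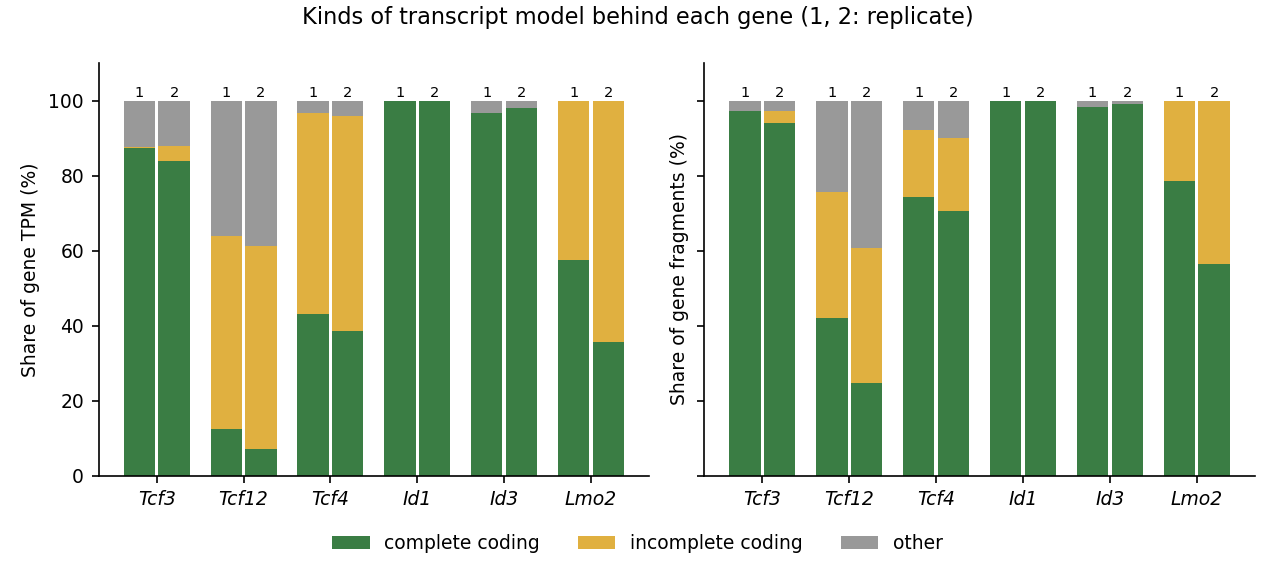
Share of each gene's TPM (left) and of its fragments (right), in percent, held by complete coding, incomplete coding and other transcript models in replicates 1 and 2, for 6 of the genes with more than 1 transcript. Complete coding models hold 12.5% and 7.04% of Tcf12 TPM, against 87.4% and 83.8% for Tcf3 and 100% for Id1.

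Id3, the Id gene induced by T cell receptor signals (chr4:136143497-136145755, plus strand), stood at 262 TPM in replicate 1 and 282 TPM in replicate 2, or 272 ± 14.1 TPM, from 9580 and 14379 fragments. It was the highest Id gene in both libraries and took 67.2% and 69.5% of the summed Id level. Its spliced coding transcript Id3-201 held 96.7% and 98.0% of the TPM. Id3-203, which keeps an intron, had 8.76 and 5.73 TPM.

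Id2, best known for its need in natural killer and other innate lymphoid cells (chr12:25093799-25097140, minus strand), stood at 77.4 and 67.3 TPM, or 72.4 ± 7.14 TPM. Id1, a target of BMP signals in many tissues (chr2:152736251-152737410, plus strand), stood at 45.8 and 52.3 TPM, or 49.1 ± 4.63 TPM. Id2 was above Id1 in both libraries, with no overlap of their ranges. The spliced form Id1-201 held 91.0% and 93.2% of Id1, and the unspliced form Id1-202 stood at 4.12 and 3.54 TPM. Id4 (chr13:48261228-48266026, plus strand) stood at 4.38 and 3.69 TPM, or 4.04 ± 0.488 TPM, and made up 1.13% and 0.911% of the summed Id level. Of the 6 innate lymphocyte markers, 4 were detected, near the share of 60.3% over protein-coding genes. The means of the 6 ran from 0.325 TPM for Ncr1 to 3.38 TPM for Rora, and they summed to 10.8 and 11.8 TPM. The 5 epithelial markers summed to 418 and 479 TPM, and the part of either cell type in Id1 or Id2 was not tested.

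By deposited TPM, the E protein genes summed to 735 in replicate 1 and 639 in replicate 2 (687 ± 68.2), and the Id genes to 389 and 405 (397 ± 11.1). The ratio of E protein to Id RNA was 1.89 and 1.58, or 1.73 ± 0.220. Tcf3 held 48.4% and 42.1% of the E protein sum, and Tcf12 45.5% and 51.2%, so the leading E protein gene changed between libraries, while on each of the other scales below Tcf3 led in both. This balance depended on the transcript models. With complete coding transcripts only, the ratio was 0.979 and 0.663. With each gene's fragments divided by the length of its longest complete coding transcript, it was 1.04 and 0.773. With no length scaling (CPM, counts scaled to depth only) it was 3.40 and 2.67. Id3 stayed the main Id gene at 66.5% to 72.1% of the Id sum in both libraries on these scales, while the mean Tcf12 share of the E protein sum was 36.5% with no length scaling, 21.3% with the longest model and 9.98% with complete transcripts.

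**Figure D4:**
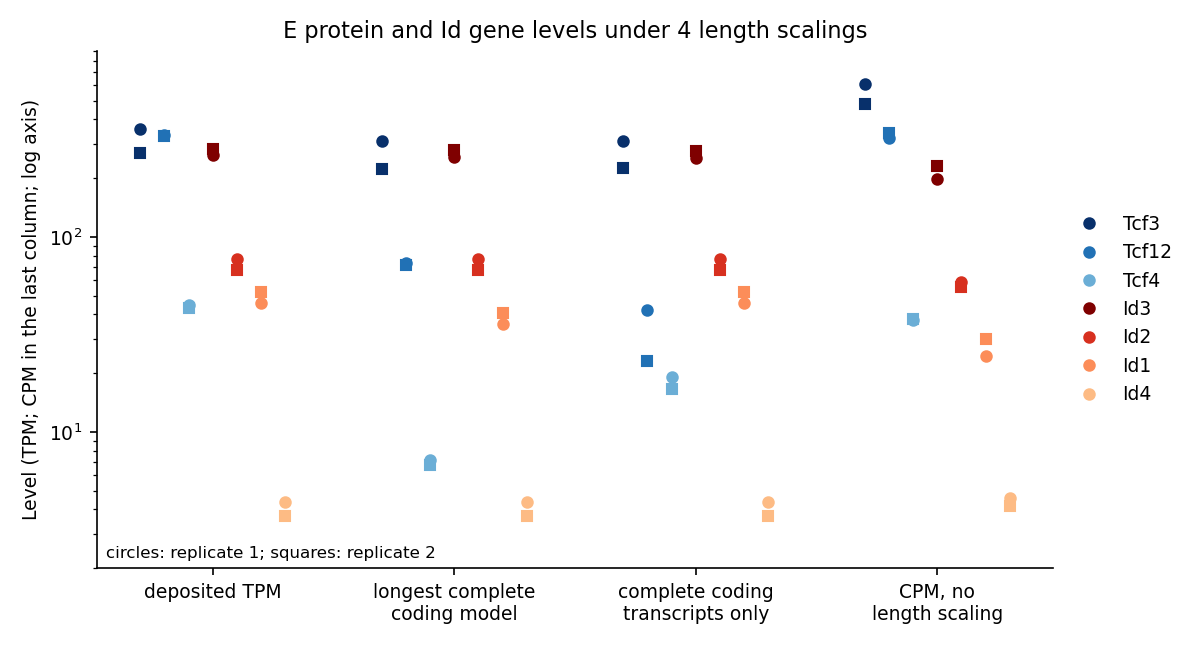
Levels of the E protein genes (blue) and Id genes (red and orange) on a log axis, in replicate 1 (circles) and replicate 2 (squares), as deposited TPM, with the longest complete coding model, with complete coding transcripts only, and as CPM (counts scaled to depth, with no length scaling). Tcf12 falls to 73.5 and 71.5 TPM with the longest model and Tcf4 to 7.20 and 6.75 TPM, while Id3 stays between 253 and 282 TPM on the 3 TPM scales.

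Lyl1 (chr8:84701457-84704715, plus strand) stood at 6.32 TPM in replicate 1 and 5.61 TPM in replicate 2, or 5.97 ± 0.502 TPM, from 351 and 432 fragments. Lyl1 overlaps Nfix on the opposite strand, at 14.8 and 14.3 TPM. The libraries are labelled as stranded, but whether strand was used in quantification is not given in the sources used here, so reads of these genes may be mixed. Lmo2 (chr2:103957986-103981878, plus strand) stood at 6.69 and 7.53 TPM, or 7.11 ± 0.594 TPM, from 250 and 335 fragments. By deposited TPM Lmo2 was above Lyl1 in both libraries, but the order turned on the other scales. With complete coding transcripts only, Lmo2 stood at 3.84 and 2.68 TPM and Lyl1 at 6.32 and 5.61 TPM. With the longest complete coding model, Lmo2 stood at 4.78 and 4.63 TPM, and with no length scaling it stood at 5.15 and 5.39 CPM, against 7.23 and 6.95 CPM for Lyl1. Tal1 (chr4:115056426-115071755, plus strand) stood at 0.79 and 0.70 TPM, or 0.745 ± 0.0636 TPM, from 65 and 112 fragments.

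Within Lmo2, different starts led in the libraries by TPM, but the same start led in both by fragments. The 4 transcripts that start between positions 103970129 and 103970244 held 4.58 TPM in replicate 1 and 2.61 TPM in replicate 2. These came from 203 and 177 fragments, or 81.3% and 52.9% of the gene. Lmo2-204, which starts at position 103969528 and is marked as incomplete, held 2.11 and 4.70 TPM, from 46.8 and 144 fragments. Transcripts of the most distal start held 0 and 0.21 TPM. Tal1 fragments were spread over 3 start groups at 0.24, 0.26 and 0.29 TPM in replicate 1 and 0.19, 0.21 and 0.30 TPM in replicate 2, too few to order them.

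Lyl1, Tal1 and Lmo2 together summed to 13.8 TPM in each library, against 735 and 639 TPM for the E protein genes. The 6 early progenitor markers, from cells in which these genes are known to be active, summed to 34.3 and 35.1 TPM. Cd34 was the highest of them at 11.9 and 15.9 TPM, and Kit stood at 7.05 and 6.78 TPM. The 6 endothelial markers summed to 130 and 140 TPM, and the 4 megakaryocyte markers to 13.3 and 24.1 TPM. Of these 4, Pf4 stood at 7.70 and 17.3 TPM and Itga2b at 3.19 and 3.16 TPM. Ppbp stood at 1.45 and 2.03 TPM and Gp9 at 0.96 and 1.63 TPM. Of the 8 erythroid markers, 6 were detected, where 60.3% of protein-coding genes were. The list summed to 4498 and 5465 TPM, nearly all of it globin RNA. Outside the globins, Alas2 stood at 7.71 and 9.02 TPM, Gata1 at 2.27 and 2.31 TPM and Klf1 at 0.22 and 0.11 TPM. The part of these cells in Lyl1, Tal1 and Lmo2 was not tested.

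None of the 9 detected genes differed by 2-fold or more between the libraries, and 4.23% of the 14360 detected genes did. The log2 ratios of all 10 genes, replicate 1 over replicate 2, ran from -0.19 for Id1 to 0.41 for Tcf3, and 7 were above 0. Their median size over the 9 detected genes was 0.169, against 0.208 over all detected genes. Id2, Id4, Lyl1 and Tcf3 were higher in replicate 1 and Id1 and Id3 in replicate 2 under TPM, TMM-scaled counts and DESeq2-scaled counts. Tcf4 was 0.053, 0.054 and 0.064 on these scales, in that order. Tal1 and Lmo2 changed direction: Tal1 was 0.15 by TPM, -0.35 by TMM and -0.34 by DESeq2 factors, and Lmo2 was -0.17, 0.01 and 0.02. The 5 macrophage markers summed to 540 TPM in replicate 1 and 736 TPM in replicate 2, and the thymocyte markers to 3069 and 3020 TPM. Of the thymocyte markers, Lck alone was higher in replicate 2, at 1327 and 1454 TPM. The rest were higher in replicate 1, with log2 ratios from 0.004 for Rag1 to 0.48 for Cd3e. The part of cell makeup in the Tcf3 difference was not tested.

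**Figure D5:**
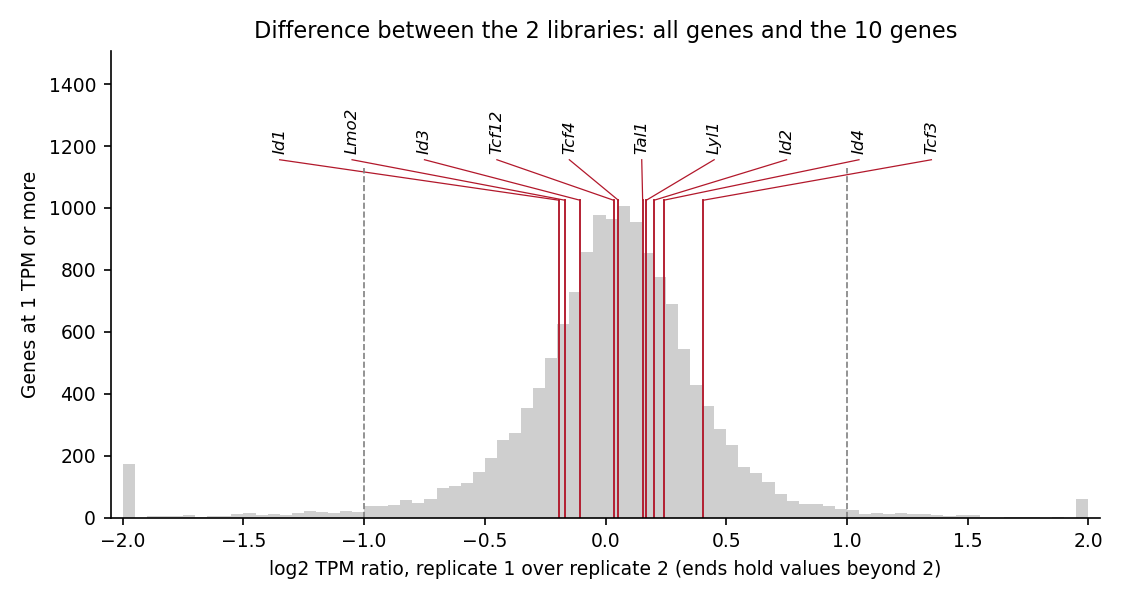
Histogram of the log2 TPM ratio of replicate 1 over replicate 2 for the 14360 genes at 1 TPM or more (grey), with the 10 genes as red lines and dashed lines at 2-fold. The 10 genes lie between -0.19 and 0.41, inside both dashed lines.

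Genes that act with the 10 were read from lists of known cofactors, targets and relatives. For comparison, 60.3% of all protein-coding genes were detected and 36.2% reached 10 TPM. Of 19 genes of the LIM-bHLH complex and its cofactors, 15 were detected and 12 reached 10 TPM, with a median of 53.2 TPM. Ldb1, the adaptor that Lmo2 binds, was the highest at 592 and 612 TPM, above every one of the 10 genes. The corepressor Sin3a stood at 236 and 187 TPM, and the Ldb1 partners Ssbp4 at 219 and 162 TPM, Ssbp3 at 123 and 102.5 TPM and Ssbp2 at 92.1 and 94.9 TPM. Tissue-restricted bHLH factors, the usual partners of E proteins elsewhere, were mostly silent: 9 of 43 were detected, 2 reached 10 TPM and 5 were listed at 0 in both libraries. Among those detected were Msc at 12.3 and 14.2 TPM, Scx at 11.1 and 8.03 TPM, Tcf15 at 2.84 and 3.91 TPM and Olig3 at 3.63 and 3.12 TPM. Of the 9 detected, Tcf21 alone differed by 2-fold, at 0.51 and 1.92 TPM. All 43 together summed to 65.1 and 64.8 TPM, below Tcf3 or Tcf12 alone on the deposited scale.

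All 8 E protein target genes of thymocytes were above 10 TPM, with a median of 242 TPM, where 36.2% of protein-coding genes reached 10 TPM. The list shares genes, Cd4 and Rag1 among them, with the thymocyte markers that were set to check the tissue. The chemokine receptor Cxcr4 stood at 1064 and 896 TPM, the co-receptor Cd4 at 460 and 446 TPM, the terminal transferase Dntt at 308 and 284 TPM, and the recombinase Rag1 at 276 TPM in both libraries. All 13 genes of signals upstream of Id genes were detected and 7 reached 10 TPM, against 60.3% and 36.2% of protein-coding genes. Egr1, the receptor-induced factor that activates Id3, stood at 153 and 106 TPM, its relative Egr2 at 60.5 and 62.0 TPM, and the BMP pathway genes Smad4 at 130 and 106 TPM, Smad5 at 34.7 and 35.4 TPM and Acvrl1 at 22.6 and 26.9 TPM. Of 12 bHLH repressors of the Hes, Hey and Bhlhe families, 8 were detected and 4 reached 10 TPM. Both counts are near the protein-coding shares of 60.3% and 36.2%, so they do not set this list apart. Hes6 led at 167 and 157 TPM, followed by Hes1, a Notch target, at 34.3 and 26.6 TPM, Hey1 at 13.8 and 15.0 TPM, Bhlhe41 at 13.4 and 8.25 TPM and Bhlhe40 at 6.53 and 4.86 TPM.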

How the data were processed

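RNA-seq of mouse thymus (2 libraries) was analysed from the authors' deposited gene and transcript tables. Their columns are, per the file headers, expected counts (fragments assigned by a model, not normalised), TPM with the bounds of an interval, and posterior means. The deposited text files name mm10 and GENCODE M4 for the quantification. Aligner and quantifier: not given in the sources used here. TPM spreads a gene's fragments over its transcript models, so short or incomplete models raise it. Contig and junction lists were not used here.

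Symbols, positions, transcript names, classes and completeness came from GENCODE M21 (GRCm38), another release, matched on IDs without versions (42462 of 43346 genes). Exon sequences were read from its transcripts. E47 and E12 exons were told apart by translating complete Tcf3 transcripts. CPM, computed here, is the expected count scaled to the fragments over all genes, without length. Detection needed a mean of 1 TPM. Library ratios are log2 ratios of TPM plus a pseudocount of 0.1, which understates low genes; a log2 of 1 in size counted as 2-fold. TMM came from edgeR and size factors from DESeq2, each with 0.5 added to counts. Starts within 400 bases formed a group. The ratio calculation was tested on counts simulated with sampling noise only. The real libraries differed by more than that, so the simulation says nothing of their spread. Its pass mark for direction was lowered after a run missed the first one. With 1 group no test was made.

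The 10 genes and all lists were chosen with earlier results of these data known. Named beside the 10 were the 5 highest of each list of cofactors, targets or relatives, those at 10 TPM in lists with fewer than 5 such, and those 2-fold apart, except some genes that are not reported here. Marker lists are given by sums, with markers named after their values were seen. Scaling used DESeq2 1.42.0 and edgeR 4.0.16 under R 4.3.3. Other steps used pandas 2.3.3, numpy 2.4.6 and scipy 1.17.1 under Python 3.11.15, and matplotlib 3.10.9 drew the figures.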

Additional observations from a re-analysis of the deposited data

How the results depend on the processing

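Counts of detected genes among the 10 and in each list stayed within 1.5 times under every alternative run, and none of the 10 genes passed 2-fold under any. By CPM all 10 genes counted as detected, with Tal1 at 1.34 and 1.80 CPM. The share of all genes 2-fold apart was 4.23% of 14360 detected genes and 9.73% of the 23938 genes with a count in either library. What moved were levels and class balances. As CPM with no length scaling, the E protein sum averaged 914, the Id sum 303 and their ratio 3.04, with Tcf3 at 59.4% and Tcf12 at 36.5% of the E protein sum and Id3 at 70.6% of the Id sum. With TPM rescaled over protein-coding genes, the sums were 863 and 499.7. The next alternatives were chosen after seeing the data. With complete coding transcripts only, the E protein sum was 319 TPM, its ratio to the Id sum 0.821, and the Tcf3 and Tcf12 shares 84.3% and 9.98%. With the longest complete coding model these were 346 TPM, 0.907, 76.7% and 21.3%, and the Id sum was 383 TPM. Counting Tcf3-212 as E12, also chosen after seeing the data, gave an E47 share of 68.6%. With both libraries kept, 18 values of summed levels, ratios and shares moved by more than 1 SD between replicates and 16 did not. For single genes and transcripts, 34 moved and 30 did not. These tallies do not measure robustness, because the SD has n = 2 and some outcomes were fixed. Rescaling over protein-coding genes cannot change a ratio or share. Id2, Id4 and Lyl1 have 1 transcript each, so they cannot move under the transcript-model alternatives.

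Leaving out 1 library leaves the other's value, which for n = 2 always lies within 1 SD of the mean and so says nothing of stability: 639 to 735 TPM for the E protein sum, 389 to 405 for the Id sum, 1.58 to 1.89 for their ratio, 42.1% to 48.4% for the Tcf3 share, 45.5% to 51.2% for the Tcf12 share, 67.2% to 69.5% for the Id3 share and 72.5% to 76.3% for E47. No paired analysis was possible because the series has 1 group. The limits are the transcript models, which set the levels of Tcf12 and Tcf4 and the E protein to Id ratio, the low fragment numbers of Tal1, Lmo2, Id4 and Lyl1, and n = 2. Completeness was taken from GENCODE M21, and lengths of Id4 and of some Tcf4 models differ from those deposited.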
